A study of Mus musculus with 10 samples.

Results

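The RAS and RAP small GTPases described here are 9 genes of the RAS family, Nras, Hras, Rras, Rras2, Mras, Rap1a, Rap1b, Rap2a and Rala, among 55401 gene identifiers in the counts. They were listed by mouse gene symbol, and earlier results of the liraglutide comparison were known when the list was made, among them that Rap1b was lower with little spread between tumors. Each symbol matched 1 identifier, and all 9 were among the 17464 genes that passed a filter on low counts and were tested.

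RNA was sequenced from 10 subcutaneous tumors of KPN1.1 cells, a mouse lung adenocarcinoma line with the NINJA allele, grown in male C57BL/6J mice with diet-induced obesity. Mice of both groups were obese and immunocompetent and received the cells in the flank at 7 to 17 weeks of age. From the time a tumor could be felt, mice received liraglutide (5 tumors), an agonist of the glucagon-like peptide-1 receptor, each day into the peritoneum at 0.2 µg per gram of body weight, or phosphate-buffered saline as vehicle on the same schedule (5 tumors). Tumors were taken 19 to 22 days after inoculation. KPN1.1 is a single cell line, so the 5 tumors of a group are separate tumors of the same line, and lean mice were not analysed here. Tumors are named by treatment and by the number in their labels.

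RAS family proteins are small switches at membranes, active when bound to GTP and inactive when bound to GDP. Exchange factors load them with GTP, GTPase activating proteins make them hydrolyze it, and the active form binds effector proteins. The RAS proteins proper relay growth factor signals to RAF kinases and phosphoinositide 3-kinase, R-RAS and RAP1 proteins act on integrin adhesion, and RAL proteins act on vesicle delivery through the exocyst. In lung adenocarcinoma the RAS pathway is among the most often activated.

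The proteins resemble each other in the switch domain and differ most near the C-terminus, where a cysteine receives the lipid that holds the protein at a membrane. The ends of the coding sequences of the 6 genes on which the results turn are printed, because they show where close relatives can be told apart at the level of RNA. Each line gives the last 60 bases of the coding sequence on the coding strand, stop codon included, from the canonical transcript in GENCODE M39 on GRCm39, and the capitals mark the codon that begins 15 bases from the end.
Rap1a: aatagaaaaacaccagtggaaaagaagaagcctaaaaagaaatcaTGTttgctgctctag
Rap1b: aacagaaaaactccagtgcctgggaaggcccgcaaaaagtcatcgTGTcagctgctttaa
Nras: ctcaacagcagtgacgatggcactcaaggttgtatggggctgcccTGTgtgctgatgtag
Hras: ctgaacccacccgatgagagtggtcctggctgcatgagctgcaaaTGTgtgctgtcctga
Rras: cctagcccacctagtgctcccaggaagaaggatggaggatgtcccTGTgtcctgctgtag
Mras: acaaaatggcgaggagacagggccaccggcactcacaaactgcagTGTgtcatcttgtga

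The capital codon encodes cysteine in all 6, and a cysteine codon stands at the same distance from the end in the other 3 genes. Rap1a and Rap1b had the most similar coding sequences of the 36 pairs, identical at 453 of 555 aligned bases (81.6%), and their longest identical stretch was 20 bases. The reads were 100 bases long, so that a read inside either coding sequence crosses differences between the genes. Nras and Hras were identical at 75.7% of aligned bases and Rras and Rras2 at 62.8%, while the least similar pair, Rras and Rap1a, reached 50.7%. Rap1a has a processed pseudogene, Gm9392, that matches its coding sequence at 98.6% over 554 bases, and Gm9392 held counts equal to 0.842% to 2.64% of those of Rap1a. Within the span of Rap1a lie 4 noncoding genes on the same strand, Gm43328 to Gm43331, with 53 to 168 counts each per tumor, where Rap1a had 601 to 1059. Their exons were not compared with those of Rap1a, and how reads shared between genes were assigned is not stated in the sources used here.

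Total counts were between 9927942 and 14480593 per tumor, and levels are given as CPM (reads of a gene relative to all counts of its tumor, scaled to a common total) after TMM scaling. Vehicle tumors 1 and 2 stood apart from the rest along the first principal component, which held 48.7% of the variance, and had the lowest leukocyte marker scores of the 10 tumors, so the values of the 9 genes are given with and without them. The epithelial markers Krt8 (1631 to 3294 CPM) and Cdh1 (560 to 2236 CPM) were high in every tumor, while Epcam (0.163 to 4.63 CPM) and Cldn4 were near 0. Of the lung markers, Nkx2-1 lay between 17.7 and 132 CPM and Sftpb between 65.1 and 530 CPM, and Sftpc reached at most 5.96 CPM. Because the samples are bulk tumor, fewer cells of a type and less RNA per cell cannot be told apart.

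The comparison of liraglutide with vehicle asks how the drug changed tumor gene expression in obese mice. For the 9 genes it is a description without a test, since the list was made with its results known. After TMM scaling, Rap1b and Rap1a were lower in every liraglutide-treated tumor than in any vehicle-treated tumor. For Rap1a this rested on the scaling, since by total counts alone vehicle tumor 5 fell within the range of the liraglutide tumors. Levels of Rras2 were lower on average and overlapped slightly, and the other 6 genes overlapped widely. Of the 17464 genes, 0 passed an adjusted p of 0.05 in edgeR's quasi-likelihood test (0%) or in limma-voom, while 981 were lower and 694 higher at an unadjusted p under 0.05, and DESeq2 called 102. The 1675 genes at that unadjusted threshold became 1046 without vehicle tumor 2, 2704 without vehicle tumor 4, 1070 without liraglutide tumor 3, 919 without liraglutide tumor 5 and 979 without vehicle tumors 1 and 2, so the background shares at that threshold vary with the tumors included.

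**Figure D1:**
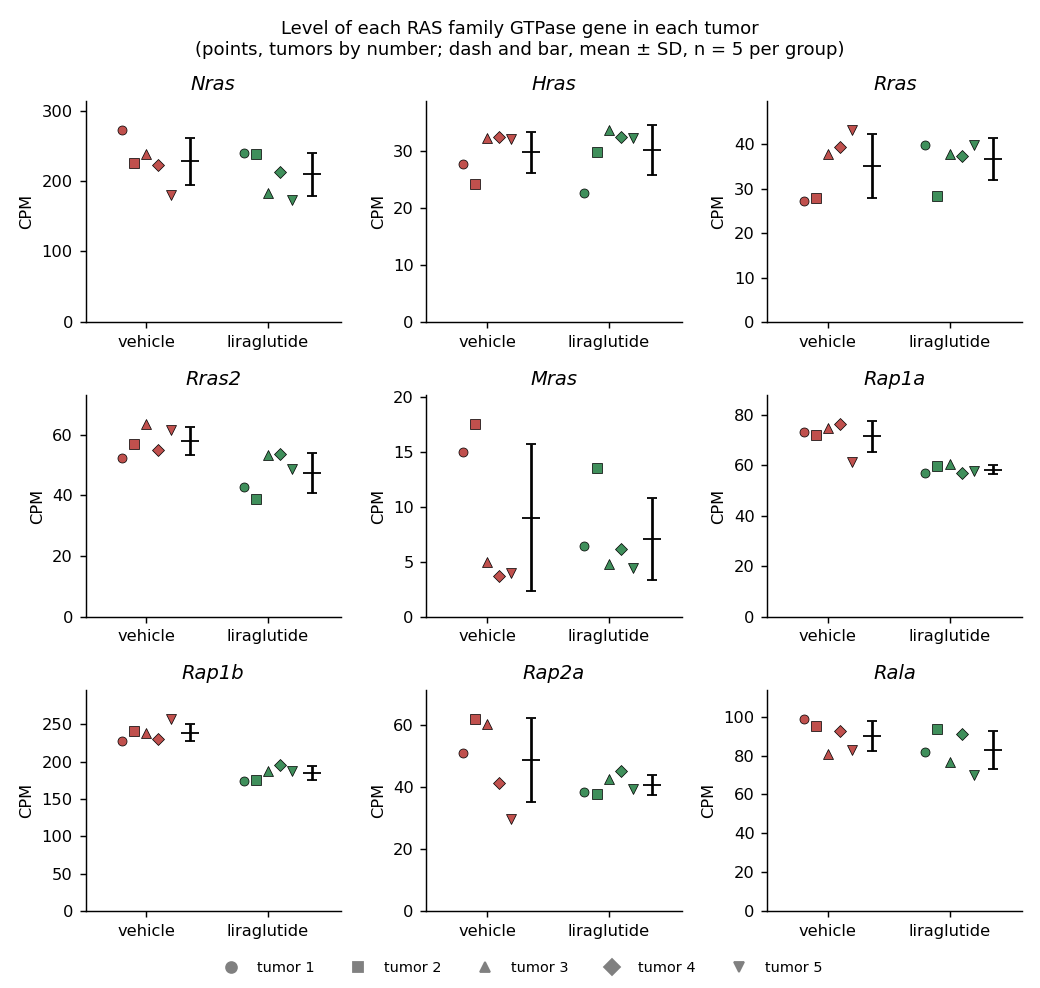
Level of each of the 9 genes in CPM (vertical axes, starting at 0) in the 5 vehicle and 5 liraglutide tumors, with the symbol giving the tumor number and the black dash and bar the mean ± SD. After TMM scaling the groups are separate for Rap1b and for Rap1a, where vehicle tumor 5 (61.1 CPM) lies just above the highest liraglutide tumor (60.5 CPM). Mras is high in vehicle tumors 1 and 2 and in liraglutide tumor 2.

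Nras (ENSMUSG00000027852.14; chromosome 3, 102965601 to 102976171, plus strand) encodes a RAS protein that cycles between the Golgi and the plasma membrane by reversible palmitoylation. In vehicle tumors 1 to 5 it was at 273, 226, 239, 222 and 181 CPM. In liraglutide tumors 1 to 5 it was at 239, 239, 183, 212 and 173 CPM. The groups overlapped over most of their range, with the lowest value in liraglutide tumor 5 and the highest in vehicle tumor 1. The means were 228 ± 33.3 and 209 ± 31.0 CPM (SD, n = 5 each), a log2 fold change of -0.12 (standard error 0.13).

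Hras (ENSMUSG00000025499.18; chromosome 7, 140768592 to 140773962, minus strand) encodes the RAS protein named after the Harvey sarcoma virus. Vehicle tumors held 27.7, 24.2, 32.2, 32.5 and 32.1 CPM in order of their number. Liraglutide tumors held 22.6, 29.8, 33.7, 32.5 and 32.2 CPM. The low tumors were vehicle 1 and 2 and liraglutide 1, and the other 7 lay close together whatever their treatment. The log2 fold change was 0.02 (standard error 0.13) on means of 29.7 ± 3.66 and 30.2 ± 4.45 CPM.

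Rras (ENSMUSG00000038387.9; chromosome 7, 44665312 to 44671073, plus strand) encodes R-RAS, which promotes integrin adhesion and is prominent in vessel walls. Its levels in vehicle tumors 1 to 5 were 27.1, 27.9, 37.8, 39.4 and 43.3 CPM. Its levels in liraglutide tumors 1 to 5 were 39.8, 28.3, 37.8, 37.5 and 39.9 CPM. Vehicle tumors 1 and 2 and liraglutide tumor 2 were low and the other 7 were higher, in both treatments. Means were 35.1 ± 7.23 and 36.7 ± 4.80 CPM, and the log2 fold change was 0.06 (standard error 0.16). Scaf1, on the opposite strand, overlaps Rras and had 1.8 to 3.37 counts for each Rras count, and whether the counting used strand is not stated in the sources used here.

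Rras2 (ENSMUSG00000055723.6; chromosome 7, 113646017 to 113717170, minus strand) encodes TC21, an R-RAS protein that activates phosphoinositide 3-kinase. Vehicle tumors were at 52.2, 57.0, 63.4, 54.9 and 61.7 CPM. Liraglutide tumors were at 42.7, 38.7, 53.2, 53.5 and 48.5 CPM. Only vehicle tumor 1 fell within the range of the liraglutide tumors, below the values of tumors 3 and 4. The log2 fold change was -0.29 (standard error 0.11), from 57.8 ± 4.65 to 47.3 ± 6.52 CPM.

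Mras (ENSMUSG00000032470.17; chromosome 9, 99267471 to 99319617, minus strand) encodes M-RAS, which with SHOC2 forms a phosphatase complex that helps activate RAF. Its levels were 15, 17.5, 4.93, 3.68 and 3.99 CPM in the vehicle tumors. It was at 6.48, 13.5, 4.78, 6.14 and 4.47 CPM in the liraglutide tumors. Vehicle tumors 1 and 2 and liraglutide tumor 2 were high and the other 7 low, so that 3 tumors set both means, 9.03 ± 6.68 and 7.08 ± 3.72 CPM. The log2 fold change of -0.35 (standard error 0.50) became 0.75 without vehicle tumors 1 and 2, 0.03 without vehicle tumor 2 alone and -0.72 without liraglutide tumor 2.

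Rap1a (ENSMUSG00000068798.10; chromosome 3, 105634567 to 105708715, minus strand) encodes a RAP1 protein, which regulates integrin activation and cell junctions. Vehicle tumors 1 to 5 held 73.2, 72.0, 74.9, 76.2 and 61.1 CPM. Liraglutide tumors 1 to 5 held 56.8, 59.5, 60.5, 56.8 and 57.7 CPM. After TMM scaling all liraglutide tumors were below all vehicle tumors, although vehicle tumor 5 lay close to them. Counts over total counts overlapped, at 750 of 12648638 in vehicle tumor 5 and 798 of 13105261 in liraglutide tumor 3. The gap between the scaled groups was also small beside counting error, which was 4.08% at the lowest count of Rap1a. The means were 71.5 ± 6.02 and 58.2 ± 1.69 CPM, a log2 fold change of -0.29 (standard error 0.087), and without vehicle tumors 1 and 2 it was -0.28.

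Rap1b (ENSMUSG00000052681.8; chromosome 10, 117648424 to 117681972, minus strand) encodes the other RAP1 protein, the abundant form in platelets. Its vehicle tumors were at 227, 240, 238, 231 and 257 CPM. Its liraglutide tumors were at 175, 175, 188, 196 and 188 CPM. The highest liraglutide tumor, number 4, was below the lowest vehicle tumor, number 1, and neither group held a tumor far from its mean. The level went from 239 ± 11.5 to 184 ± 9.32 CPM, a log2 fold change of -0.37 (standard error 0.079), and it was -0.39 without vehicle tumors 1 and 2. Although Rap1b and Rap1a were both lower, their ratio within a tumor overlapped between the groups, at 3.02 to 4.21 in vehicle tumors and 2.94 to 3.45 in liraglutide tumors.

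Rap2a (ENSMUSG00000051615.14; chromosome 14, 120715735 to 120744623, plus strand) encodes a RAP2 protein, which acts on the kinases TNIK and MAP4K4. Vehicle tumors were spread, at 50.8, 61.8, 60.4, 41.3 and 29.6 CPM. Liraglutide tumors were close together, at 38.4, 37.6, 42.5, 45.2 and 39.3 CPM. The liraglutide tumors lay inside the range of the vehicle tumors, of which 4 and 5 were low. The log2 fold change was -0.26 (standard error 0.18) and the means were 48.8 ± 13.5 and 40.6 ± 3.15 CPM.

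Rala (ENSMUSG00000008859.8; chromosome 13, 18055156 to 18118824, minus strand) encodes a RAL protein, which binds the exocyst and is activated by exchange factors that are themselves RAS effectors. In vehicle tumors it was at 98.8, 95.1, 80.7, 92.5 and 83.0 CPM. In liraglutide tumors it was at 81.8, 93.5, 76.8, 91.0 and 70.0 CPM. The values were mixed, with liraglutide tumors 2 and 4 among the higher ones. The log2 fold change was -0.12 (standard error 0.11), from 90.02 ± 7.81 to 82.6 ± 9.77 CPM.

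**Figure D2:**
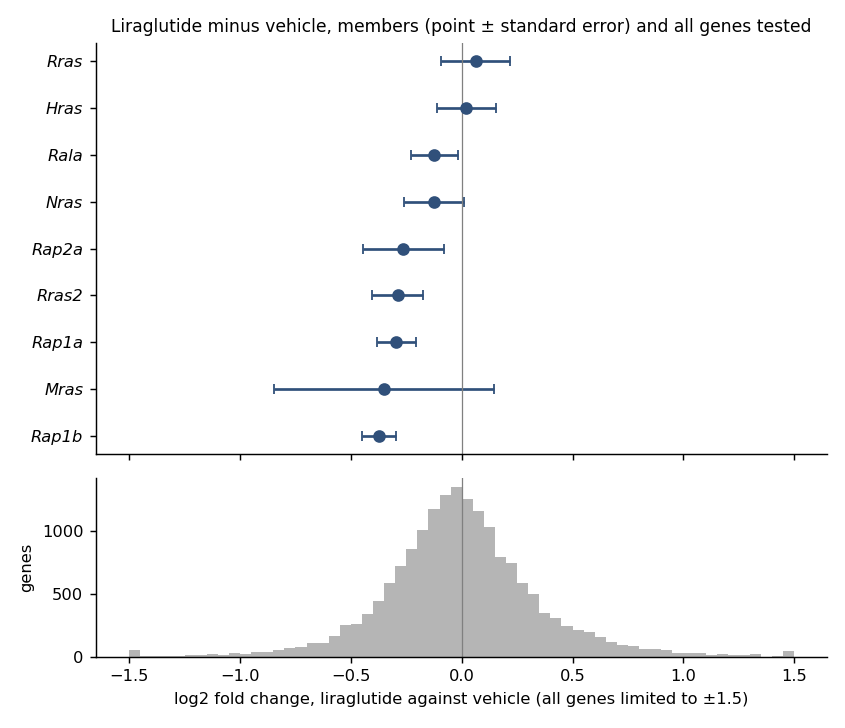
Log2 fold change of each gene, liraglutide against vehicle, with its standard error (top), above the number of all genes tested by fold change (bottom, limited to ±1.5). Rap1b (-0.37) and Rap1a (-0.29) have narrow errors, Mras (-0.35) has the widest, and the values of all 9 lie within the bulk of all genes.

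Counted over the list, 7 of 9 genes had a log2 fold change under 0, where 52.6% of all genes tested did, and their median was -0.26 beside -0.02 for all genes. At an unadjusted p of 0.05, 3 were lower (Rap1b, Rap1a and Rras2) and none higher, beside 5.62% and 3.97% of all genes. Separate ranges of CPM after TMM scaling were found for 2 genes, both lower with liraglutide. Beside them stood 0.888% of all genes in that direction and 0.607% in the other. DESeq2, the tool the study used, gave an adjusted p to 4254 genes, 5 of the 9 among them. It called 75 of those genes lower (1.76%), with Rap1b and Rap1a among the 75, and 27 higher (0.635%). The DESeq2 adjusted p of Rap1a was 0.0483. The study also required a minimum fold change that Rap1b and Rap1a do not reach, so these are not its calls. Since the list was made with this contrast known, nothing is read from these counts.

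Leaving out vehicle tumors 1 and 2 changed several of these values. The log2 fold change was then -0.11 for Rap2a, -0.03 for Nras and -0.05 for Rala, and it turned below 0 for Rras (-0.13) and Hras (-0.10), while that of Rras2 was -0.34. Markers of some other tissues also differed on average between the groups, and none passed the threshold. All 5 skeletal muscle markers were higher on average with liraglutide, with summed levels of 29.6 to 232 CPM (median 52.4) in vehicle tumors and 57.0 to 280 CPM (median 182) in liraglutide tumors. All 4 keratinocyte markers were higher on average as well, with sums of 8.36 to 17.6 CPM (median 11.6) and 6.65 to 200.5 CPM (median 49.9). Liraglutide tumors 1 (6.65 CPM) and 3 (6.82 CPM) lay below every vehicle tumor. Of 3 adipocyte markers tested, 1 was higher and 2 were lower, and the summed list had medians of 15.6 CPM with vehicle and 16.4 CPM with liraglutide. Ribosomal protein genes took 2.79% to 3.66% of counts in vehicle tumors and 2.26% to 3.04% in liraglutide tumors. The part of these in the values of the 9 genes was not tested.

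The difference in Rap1b was of moderate size, as 22.6% of all genes tested had a larger absolute log2 fold change, whereas its spread was among the smallest. The SD of log2 CPM within treatments was smaller than that of Rap1b for 0.326% of genes and smaller than that of Rap1a for 1.72%. For Mras, 93.2% of genes had a smaller SD. The small spread of Rap1b was part of how the list was made and is a description.

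**Figure D3:**
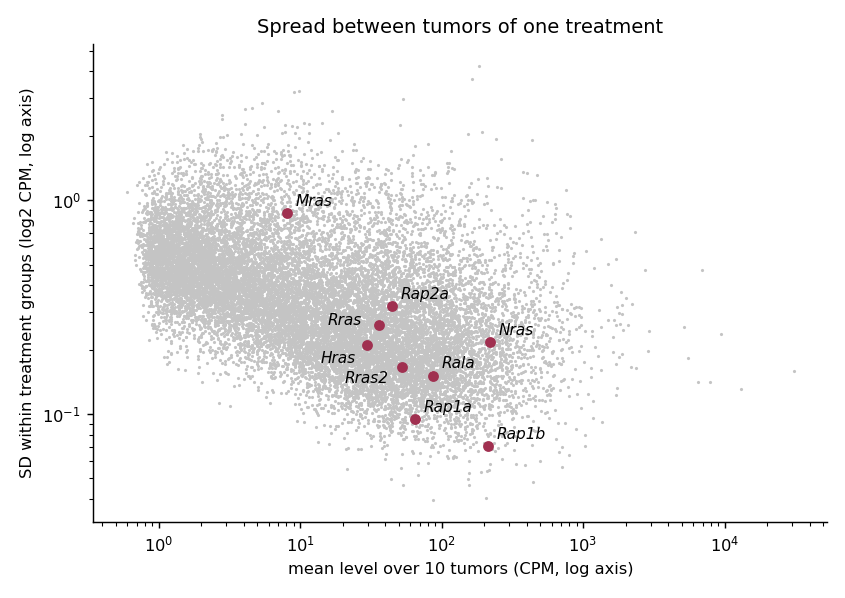
SD of log2 CPM within treatment groups against mean CPM (both log axes), with all genes tested in gray and the 9 genes in red. Rap1b and Rap1a lie near the lower edge of the cloud, and Mras lies near its upper edge.

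The tumors in which Mras was high were those in which Rras was low, namely vehicle tumors 1 and 2 and liraglutide tumor 2. Over the 10 tumors, after each treatment's mean was subtracted, Mras and Rras had a Pearson r of -0.957 and a Spearman rho of -0.903, the strongest of the 36 pairs, and without the 2 tumors farthest from the median of Mras r was -0.927 (n = 8). Without vehicle tumors 1 and 2, r was -0.888 and rho -0.595 (n = 8), and without the 3 tumors of highest Mras r was -0.296 (n = 7), so the relation rests on those 3 tumors. The points share libraries and their depth, and no test is attached.

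How gene levels varied with cell type markers was asked with marker scores, each the mean standardized log2 CPM of its markers scaled to an SD of 1. The slope of every gene on a score was fitted by edgeR with treatment as a second term. The list was made knowing the small spread of Rap1b, on which its slope draws, so the slope of Rap1b is a description. Mras fell with the leukocyte score and Rras rose with it. For Mras the slope was -0.84 log2 units per SD (standard error 0.13, edgeR quasi-likelihood adjusted p = 0.00136), and 98.7% of genes had a higher slope. The slope of Rras was 0.21 (standard error 0.064, edgeR adjusted p = 0.0334). These 2 of 9 genes stood beside 14.1% of all genes rising and 12.7% falling with that score, so the share of the list that was called was near the background.

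Neither slope passed the threshold when the tumors that stood apart were left out. Without vehicle tumors 1 and 2 the slope of Mras was -0.44 (edgeR adjusted p = 0.0875) and that of Rras 0.08 (edgeR adjusted p = 0.542), and the genes called fell from 4692 to 579. With 1 tumor left out at a time Mras kept its call in all 10 fits, with slopes from -0.96 to -0.70. Rras lost its call without vehicle tumor 1 (edgeR adjusted p = 0.126), 2 (0.0995), 4 (0.0517) or 5 (0.061) and without liraglutide tumor 2 (0.0755) or 5 (0.0512). Summed leukocyte markers were 231 to 436 CPM in vehicle tumors and 299 to 447 CPM in liraglutide tumors, with 9 of 11 markers higher on average with liraglutide and none past the threshold. The leukocyte score ran largely with the first principal component, and both were lowest in vehicle tumor 1 and highest in liraglutide tumor 3. Nkx2-1 (17.7 to 26.6 CPM) and Cdh1 (560 to 814 CPM) were lowest in vehicle tumors 1 to 3, of which 1 and 2 had the lowest scores. The share of counts from ribosomal protein genes also differed along this axis, at 2.26% to 3.66%. The part of any of these in the slopes was not tested.

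**Figure D4:**
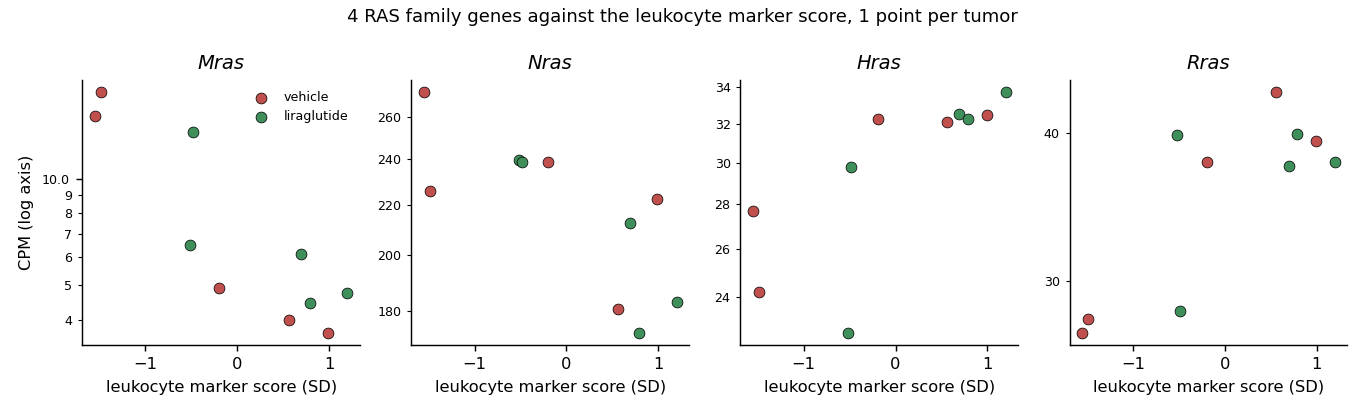
CPM (log axis) of Mras, Nras, Hras and Rras against the leukocyte marker score, in SD, for each vehicle and liraglutide tumor. Mras is highest (17.5 CPM) at a low score and lowest (3.68 CPM) at a high one, Rras is low in 3 of the 4 tumors at scores under -0.4, and vehicle tumors 1 and 2 are the points at the far left.

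Hras and Nras came near the threshold on the leukocyte score without passing it, and Rras2 did not. The slope of Hras was 0.17 (standard error 0.057, edgeR adjusted p = 0.0506) and that of Nras -0.16 (standard error 0.056, edgeR adjusted p = 0.0595). For Rras2 the slope was 0.10 (standard error 0.056, edgeR adjusted p = 0.196). For Rap1b the slope was 0.04 (standard error 0.041), given with no test, and for Rap1a it was -0.01 (standard error 0.047, edgeR adjusted p = 0.911). With the leukocyte score as a covariate, the log2 fold change of Rap1b with liraglutide was -0.40, that of Rap1a -0.29 and that of Mras 0.44.

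Rap2a had its steepest slopes on the stromal scores, and none of them passed the threshold. Its slope on the fibroblast score was 0.28 (standard error 0.067, edgeR adjusted p = 0.226) and on the endothelial score 0.23 (standard error 0.070, edgeR adjusted p = 0.999). The vehicle tumors with little Rap2a, 4 and 5, were also those with the lowest summed fibroblast markers, 1454 and 1477 CPM. Without vehicle tumor 5 the fibroblast slope of Rap2a was 0.15 (edgeR adjusted p = 0.854). Without liraglutide tumor 2 that slope was 0.31 with an edgeR adjusted p of 0.033, in a fit that called 1690 genes where the full fit called 1 (0.00573%). On the epithelial score none of the 9 genes passed (0% of all genes did), and the lowest edgeR adjusted p was 0.242, for Mras. Its slope there was -0.61 (standard error 0.21), and 99.0% of genes had a higher slope. The slope of Rras was 0.18 (standard error 0.066, edgeR adjusted p = 0.253). Of the 7 markers in this score, Epcam and Esrp1 (0.0691 to 2.69 CPM) were at low levels.

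Compared per length of all annotated exons, Nras had the highest mean of the 9, a rank that went to Rap1b by the canonical transcript, and Mras had the lowest mean by either length. In vehicle tumor 5, Rap1b (25.8 CPM per kilobase) was above Nras (24.8). The levels per kilobase of all annotated exons, as means ± SD over the 10 tumors, were 30.0 ± 4.37 CPM for Nras, 23.3 ± 2.49 for Rala, 21.2 ± 3.04 for Rap1b, 13.9 ± 2.03 for Rras2 and 11.9 ± 1.95 for Rras. Rap2a followed at 10.2 ± 2.33 CPM per kilobase, Rap1a at 9.03 ± 1.13, Hras at 5.92 ± 0.761 and Mras at 1.07 ± 0.690. Nras exceeded Rala, Rap1b exceeded Rras2, Rap1a exceeded Hras and Hras exceeded Mras in 10 of 10 tumors. The other neighbors were not separated in every tumor, with Rala above Rap1b, Rras2 above Rras and Rap2a above Rap1a in 8 of 10 and Rras above Rap2a in 7 of 10. The length decided part of this order. By the canonical transcript Rap1b was at 76.8 CPM per kilobase, above Nras at 40.4 on average and above Rala in every tumor, and Rap1a was above Rap2a in every tumor. The counts were those of the whole gene in either case. For Rap1b, with 9977 bases of annotated exons and 2755 in the canonical transcript, they may include reads from outside that transcript.

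Other genes whose levels moved most like those of a member over the 10 tumors, with treatment means subtracted, were chosen from all genes tested and are given with no test. Upf3a, which acts in nonsense-mediated decay, had the highest r with Rap1b (0.942), followed by Slc66a1 (0.929) and Disc1 (0.913). Disc1, at a low level of 1.03 CPM, was also the closest to Rras2 (0.970), before Itga9 (0.956), an integrin subunit, and Acad9 (0.946). For Rap1a the closest were Tmsb4x (0.950), which encodes an actin-binding thymosin, Slc39a13 (0.937) and S1pr2 (0.929). Btrc (0.990), a subunit of a ubiquitin ligase, Ssbp3 (0.988) and Smndc1 (0.988) were closest to Mras, and Tbrg1 (0.983), Gm19461 (0.983) and Glud1 (0.981), glutamate dehydrogenase, to Rras. Those of Nras were Sephs1 (0.979), Gm43313 (0.967) and BC106179 (0.962), and those of Hras were Olfm1 (0.962), Atox1 (0.957) and Zfp467 (0.955). Rala was closest to Tmem8b (0.967), Smarcad1 (0.947) and Bag4 (0.943), and Rap2a to the pseudogene Csnk2a1-ps3 (0.944), the growth factor gene Igf1 (0.940) and Unc45b (0.938). Others at low levels were Unc45b (0.838 CPM), Csnk2a1-ps3 (1.64), Tmem8b (2.46), Zfp467 (2.68) and BC106179 (2.75). Spearman rho of the genes named here ran from 0.649, for Hras and Zfp467, to 0.988, for Nras and Sephs1.

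The regulators and partners of these GTPases were taken from 5 lists of 106 genes, of which 93 were tested, and none of them passed the adjusted threshold. Of the 93, 49 had a log2 fold change under 0 and 44 above, with a median of -0.01 beside -0.02 for all genes tested. Among 25 other RAS family GTPases, 15 were tested, and 11 of them had a value under 0 (median -0.21). Rap2c, a RAP2 protein, was at 95.1 ± 11.8 CPM with vehicle and 82.5 ± 3.90 with liraglutide (log2 fold change -0.21, standard error 0.099), and Ralb, the second RAL protein, was at 90.4 ± 10.1 and 84.4 ± 8.08 CPM. At an unadjusted p of 0.05, Rasl11b was higher and Rap2b lower on that list, beside 3.97% and 5.62% of all genes.

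The switches that load and unload the GTPases were near 0 as groups. Of 19 exchange factors tested, 6 had a log2 fold change under 0 and 13 above (median 0.04). Rapgef6, an exchange factor for RAP proteins, was at 153 ± 6.62 CPM with vehicle and 158 ± 6.27 with liraglutide, and Sos1, which loads RAS downstream of receptor kinases, was at 129 ± 9.82 and 128 ± 17.8 CPM. Of 17 GTPase activating proteins tested, 8 were under 0 and 9 above (median 0.04). Ralgapa2, a subunit of the complex that inactivates RAL, was at 334 ± 28.2 and 380 ± 52.9 CPM, and Nf1, neurofibromin, which inactivates RAS, was at 336 ± 48.5 and 352 ± 45.0 CPM. Dab2ip was the 1 gene of these 2 lists at an unadjusted p under 0.05, with a log2 fold change of 0.27, where 3.97% of all genes were higher and 5.62% lower at that threshold.

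Effectors and lipid-modifying enzymes gave a similar picture. Of 28 effectors tested, 16 were under 0 and 12 above (median -0.03). Tln1, talin, through which RAP1 activates integrins, was at 502 ± 76.8 CPM with vehicle and 506 ± 16.4 with liraglutide, and Afdn, afadin, a RAP1 partner at cell junctions, was at 368 ± 40.0 and 364 ± 32.5 CPM. Tnik was higher and Map2k1 lower at an unadjusted p of 0.05, beside the same 3.97% and 5.62% of all genes. Of 14 genes for lipid modification and membrane trafficking, 8 were under 0 and 6 above (median -0.05). Rap1gds1, a chaperone of prenylated small GTPases, was at 156 ± 12.6 and 146 ± 3.67 CPM, and Pggt1b, a subunit of the enzyme that adds the geranylgeranyl lipid to RAP1, was at 73.8 ± 6.80 and 78.0 ± 6.90 CPM.

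**Figure D5:**
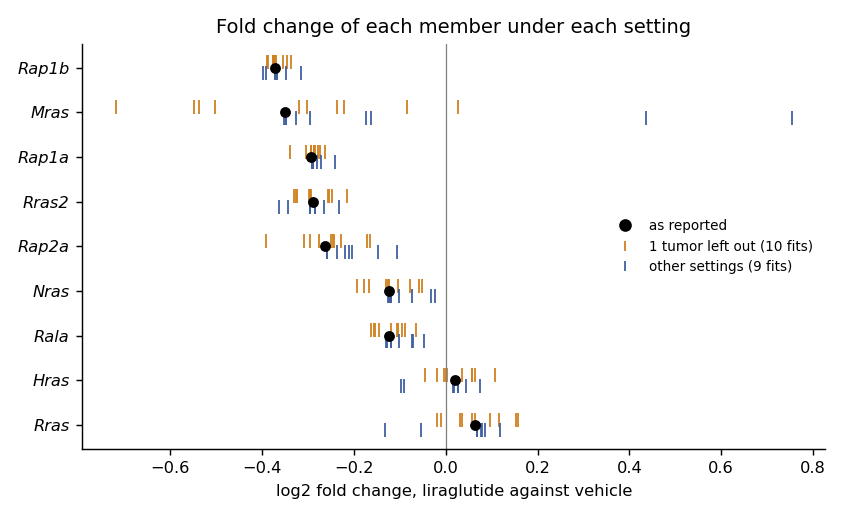
Log2 fold change of each gene, liraglutide against vehicle (horizontal axis), as reported (black), in 10 fits that leave out 1 tumor (orange) and in 9 fits with other settings (blue). Rap1b stays between -0.40 and -0.32 and Rap1a between -0.34 and -0.24 in all of them, while Mras runs from -0.72 to 0.75 and Hras and Rras take both signs.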

How the data were processed

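RNA was measured in 10 tumors (5 per treatment), and groups were taken from the treatment label and tumor numbers from the sample titles. The authors deposited raw counts per gene, made from paired reads that were aligned with Bowtie and TopHat and counted with featureCounts. The methods name GRCm39, while the submitters' processing notes list mm10 and GRCh38. Of 55401 identifiers, 51731 (98.3% of counts) matched GENCODE M39 without version, and 35 had the same version, so the positions and lengths given here are those of M39 on GRCm39 and may differ from the authors' gene models. The annotation release, the strand setting and the handling of multimapping reads are not given in the sources used here, and other alleles of the line are not reported here.

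In R 4.3.3, genes were filtered with filterByExpr, scaled by TMM and fitted with the quasi-likelihood test of edgeR 4.0.16, with p-values adjusted by Benjamini-Hochberg over all genes tested. Log2 CPM used a prior count of 2. The edgeR fits of treatment and of a score slope were also run on simulated data, with the outcome not given here. The alternatives were DESeq2 1.42.0, limma-voom (limma 3.58.1), other scalings and filters, a leukocyte covariate, the tumor number as a block and leaving out tumors. The total counts, given above, set a floor of 0.207 to 0.302 CPM per tumor at 3 counts, for counting error only. Averaged over genes, chi-square per degree of freedom between tumors of a group was at least 9.31. The spread between tumors was thus larger than counting error on average. Rap1a in the liraglutide tumors was an exception, with an SD of 2.89% of its mean beside a counting error of 4.08% at its lowest count. The labels do not say whether each tumor came from a separate mouse, so p-values measure the spread between these tumors.

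The 9 genes, the marker lists and the pathway lists were chosen with earlier results of these data known. Genes named are the 9 members, the 2 genes of highest mean CPM on each pathway list with any past the threshold, and the 3 genes most like each member. The genes of each pathway list at an unadjusted p under 0.05 were named after their values were seen.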

Additional observations from a re-analysis of the deposited data

Results flagged for a closer look

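Among the 18 groups of 5 values of the 9 genes, 3 held a tumor whose gap to its nearest neighbor was large for the group's range (Dixon's test at the 95% level, which chance passes in about 1 group in 20). Rras in liraglutide tumor 2 was at 28.3 CPM, with the nearest tumor at 37.5 CPM. Mras in the same tumor was at 13.5 CPM, with the nearest at 6.48 CPM. Rap1a in vehicle tumor 5 was at 61.1 CPM, with the nearest at 72.0 CPM. Liraglutide tumor 2 also had the highest summed keratinocyte markers, 200.5 CPM, where the other 9 tumors had 6.65 to 76.2 CPM, and the part of skin in its values was not tested.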

How the results depend on the processing

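For all 9 genes but Mras, the log2 fold change moved by less than the spread between tumors under every alternative run. Excluding vehicle tumors 1 and 2, chosen after seeing the data, gave Mras 0.75. The range with 1 tumor left out was -0.39 to -0.34 for Rap1b, -0.34 to -0.26 for Rap1a, -0.33 to -0.22 for Rras2, -0.72 to 0.03 for Mras, -0.39 to -0.17 for Rap2a, -0.19 to -0.05 for Nras, -0.16 to -0.07 for Rala, -0.05 to 0.11 for Hras and -0.02 to 0.16 for Rras. DESeq2 called 102 genes for treatment and limma-voom 0, as did edgeR in each fit with 1 tumor left out (0 to 0). Genes called on the leukocyte score numbered 3021 to 5045 with 1 tumor left out, 579 excluding vehicle tumors 1 and 2 (0 of the 9 members), and 1 to 2 members were called with 1 tumor left out. Genes called on the fibroblast score were 0 to 1690 with 1 tumor left out, 2 by library size alone and 0 with at least 10 counts in every tumor, with limma-voom, without treatment in the model, with the block and excluding vehicle tumors 1 and 2. On the epithelial score 41 genes were called with at least 10 counts in every tumor and 0 to 5 with 1 tumor left out, and on the endothelial score 0. The cause of these shifts was not tested.

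Hras passed the threshold on the leukocyte score by library size alone (slope 0.19), with at least 10 counts in every tumor (0.18) and with limma-voom (0.17), and Nras with treatment left out (-0.16), without vehicle tumor 2 (-0.18) and without vehicle tumor 4 (-0.21). By the longest transcript, Rala exceeded Rap1b per kilobase in 0 tumors, Rras2 exceeded Rras in 3 and Rap2a exceeded Rap1a in 2. By the canonical transcript, chosen after seeing the data, Rala exceeded Rap1b in 0 and Rap2a exceeded Rap1a in 0.

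Tumor numbers are shared between the groups, but no label says that a number marks a shared batch. Same-numbered tumors deviated together only in part, with r from -0.075 to 0.566 and 3 of 10 tumors closest to their own number. The mean r was 0.26 for the same number and -0.07 for different numbers. Without a label the numbers were not taken to pair the tumors, and a fit with them as a block is given. With the tumor number as a replicate block, genes at an unadjusted p under 0.05 for treatment rose to 2585 and none passed adjustment, 13 genes and 0 members were called on the leukocyte score (Mras -0.75, edgeR adjusted p = 0.41, and Rras 0.17, 0.747), and the log2 fold changes kept their signs. Depth limits Mras most, with 44 to 217 counts per tumor.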
